A study of Salmo salar with 40 samples.

Results

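The genes described here are the immunoglobulin, T cell and major histocompatibility complex (MHC) genes of Atlantic salmon liver. They were picked by the words of their gene description, such as "Ig heavy chain", "T-cell surface glycoprotein CD", "histocompatibility antigen" or "beta-2-microglobulin". The rule uses no measured value, but it was chosen with earlier results of these data known. The rule found 58 of the 79140 gene entries of the count table. By role they are 4 immunoglobulin (Ig) heavy chain genes, 1 Ig light chain gene, 4 genes of the B-cell receptor alpha chain CD79a, 6 T-cell surface CD genes, 9 MHC class I genes, 12 beta-2-microglobulin genes, 1 antigen peptide transporter, 13 MHC class II genes, 2 class II gamma chains and 6 other genes. No description contained "T-cell receptor", so the chains that recognise antigen on T cells are not among them. Of the 6 other genes, 4 are named for RFX1, a transcription factor described as a regulator of MHC class II genes. The remaining 2 are named minor histocompatibility antigen H13, which is a signal peptide peptidase of the endoplasmic reticulum and not an MHC molecule.

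Liver messenger RNA was sequenced in 40 salmon, 1 library per fish, in 4 groups of 10. Exposed fish had been given lufenuron, a benzoylurea insecticide that stops arthropods from building chitin and is given against sea lice, at 5 mg/kg, and control fish 0 mg/kg. The groups are exposed fish at day 14, control fish at day 14, exposed fish at day 8 and control fish at day 8; day 8 was 1 day and day 14 was 7 days after the end of treatment. Body weight was 35 to 66 g in exposed fish at day 14, 17 to 67 g in control fish at day 14, 34 to 44 g in exposed fish at day 8 and 34 to 42 g in control fish at day 8. The sources used here do not give age, strain or tanks. P-values therefore cover only how these fish varied, and a tank difference and a group difference cannot be told apart. The comparisons ask whether the liver transcriptome differs with lufenuron at each day, and how it differs between the days.

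B cells carry membrane immunoglobulin together with CD79a, and plasma cells secrete it. T cells read peptides through a receptor coupled to CD3 chains, with CD8 as the co-receptor on the cells that recognise MHC class I. Class I molecules, paired with beta-2-microglobulin and loaded with peptides pumped into the endoplasmic reticulum by the TAP transporter, are made by nearly all nucleated cells, hepatocytes included. Class II molecules and their gamma chain, also called invariant chain or CD74, belong mainly to macrophages, dendritic cells and B cells, which in liver are the resident and passing immune cells.

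Each library held 43.4 M to 76.8 M (mega) counted reads (median 56.7 M), so that 1 CPM (a count per M reads of the scaled library) stood for 41.9 to 80.8 reads. The libraries were those of liver, with hepatocyte marker genes at 88983 to 195882 CPM in sum. Markers of other tissues varied between fish, from 1220 to 4270 CPM for red cell genes, 12.1 to 351 CPM for digestive enzymes of the exocrine pancreas, and 0.0903 to 78.4 CPM for gut epithelium genes, whose highest sum was in exposed day 8 fish 3. Salmon carries many near-identical gene copies, and how shared reads were assigned and whether strand was used are not given, so values of single class I, class II and beta-2-microglobulin genes are uncertain. In whole liver, fewer cells of a type and less RNA per cell cannot be told apart.

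None of the 58 genes was at 0 in all fish, and 38 passed the filter on low counts and were tested. A mean of 10 CPM or more was reached by 14 genes, 11 lay between 1 and 10 CPM, and 13 tested genes were under 1 CPM. CPM is not corrected for gene length, so levels of different genes are not compared here. The Ig and B-cell receptor genes had few reads. The Ig mu gene had a group median of 0.111 to 0.327 CPM, and the 3 other Ig heavy genes and all 4 CD79a-like genes had too few reads to be tested, with 3 to 279 reads in all 40 fish together. The other 13 untested genes had 1 to 345 reads over all fish and include the CD3 delta gene, which RefSeq (assembly Ssal_v3.1) lists as a long non-coding RNA, and the CD1c gene.

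With lufenuron, none of the 38 genes passed the test at day 14 and none at day 8 (edgeR quasi-likelihood test, adjusted p under 0.05 over 30397 genes). Over all genes tested the share called was 0.0% at day 14, and at day 8 it was 1.63%, made of 0.467% higher and 1.16% lower in exposed fish. By number these day 8 calls were 142 genes higher of 494, and 57 of 556 with total counts as the only scaling. The smallest adjusted p of a member was 0.496 at day 14 and 0.309 at day 8, and 1 member at each day had an unadjusted p under 0.05. That was 2.63% of the members tested, beside 8.02% of all genes at day 14 and 16.1% at day 8. The median log2 fold change of the 38 genes was -0.004 at day 14, beside 0.004 over all genes, and 0.02 at day 8, beside 0.005 over all genes. At day 14, 18 of the 38 lay above 0, and at day 8, 22 did. A difference of the lufenuron effect between the days was called for none of the members either (smallest adjusted p 0.579). None had an unadjusted p under 0.05 for it, beside 10.8% of all genes. Of all genes 0.0493% were called, 8 of 15 with a positive difference, and 411 of 422 with total counts as the only scaling. For each of the 38 genes the values of exposed and control fish overlapped at both days. How many of all genes overlap was not counted, so this overlap says nothing particular to the members. None of the other settings tried, which include DESeq2 and the removal of each fish in turn, called a member with lufenuron.

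**Figure D1:**
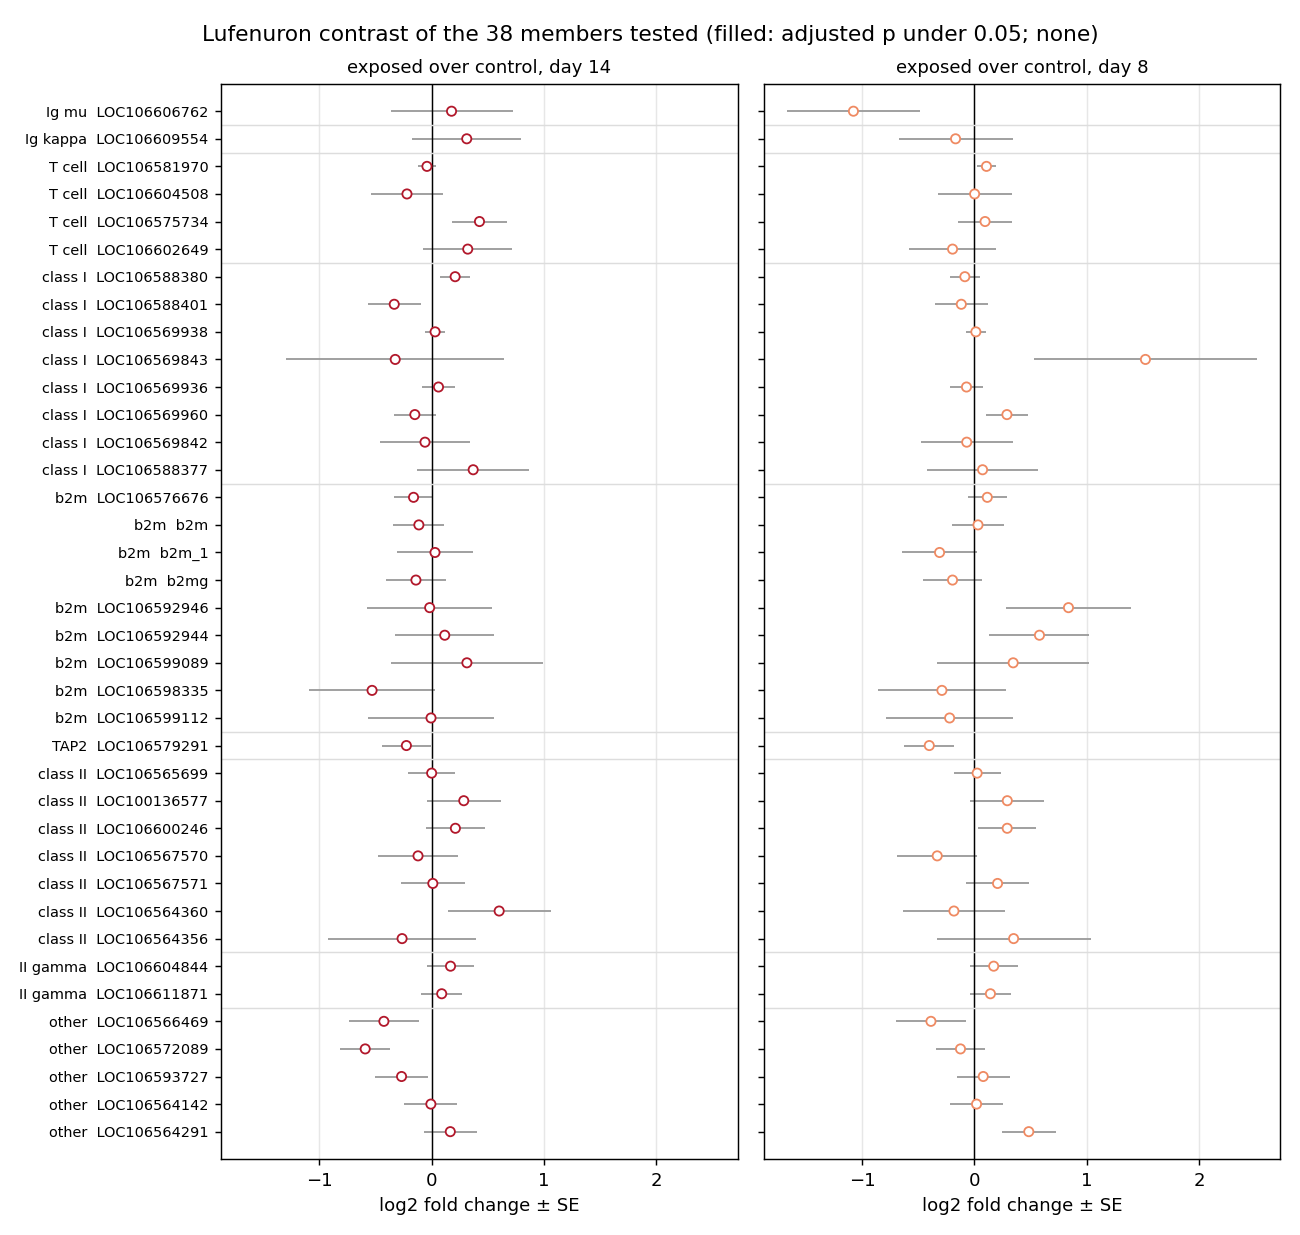
Log2 fold change of exposed over control fish, with its standard error (SE), for the 38 members tested, grouped by role; day 14 on the left and day 8 on the right. Open circles are genes with an adjusted p of 0.05 or more, which all 38 are at both days.

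The plot of lufenuron effects shows where these estimates are tight and where they are not. The class I gene LOC106569938 and the CD3 zeta gene LOC106581970 had an SE under 0.1 on the log2 scale, whereas Ig mu and several beta-2-microglobulin copies had an SE over 0.5.

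Of the Ig genes, the Ig mu gene LOC106606762, the constant region of the membrane-bound heavy chain of IgM, had 0.110, 0.327 and 2.05 CPM as the lowest, median and highest value in exposed fish at day 14, against 0.0576, 0.291 and 1.24 CPM in control fish. At day 8 it had 0, 0.111 and 0.359 CPM in exposed fish, against 0.0661, 0.200 and 1.29 CPM in control fish. The ranges overlapped at both days, with 7 of 10 exposed fish above the control median at day 14 and 3 of 10 at day 8. Its log2 fold change was 0.18 ± 0.54 (SE, adjusted p = 0.959) at day 14 and -1.08 ± 0.59 (adjusted p = 0.375) at day 8. The light chain gene LOC106609554, named Ig kappa-b4 C region, had 0.212, 0.509 and 4.20 CPM in exposed fish at day 14, against 0.137, 0.425 and 2.93 CPM in control fish, with a log2 fold change of 0.31 ± 0.48 (adjusted p = 0.915). At day 8 its medians were 0.353 CPM in exposed fish and 0.381 CPM in control fish. In both genes a single fish lay far above the rest in some groups, as the plot of values by fish shows.

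**Figure D2:**
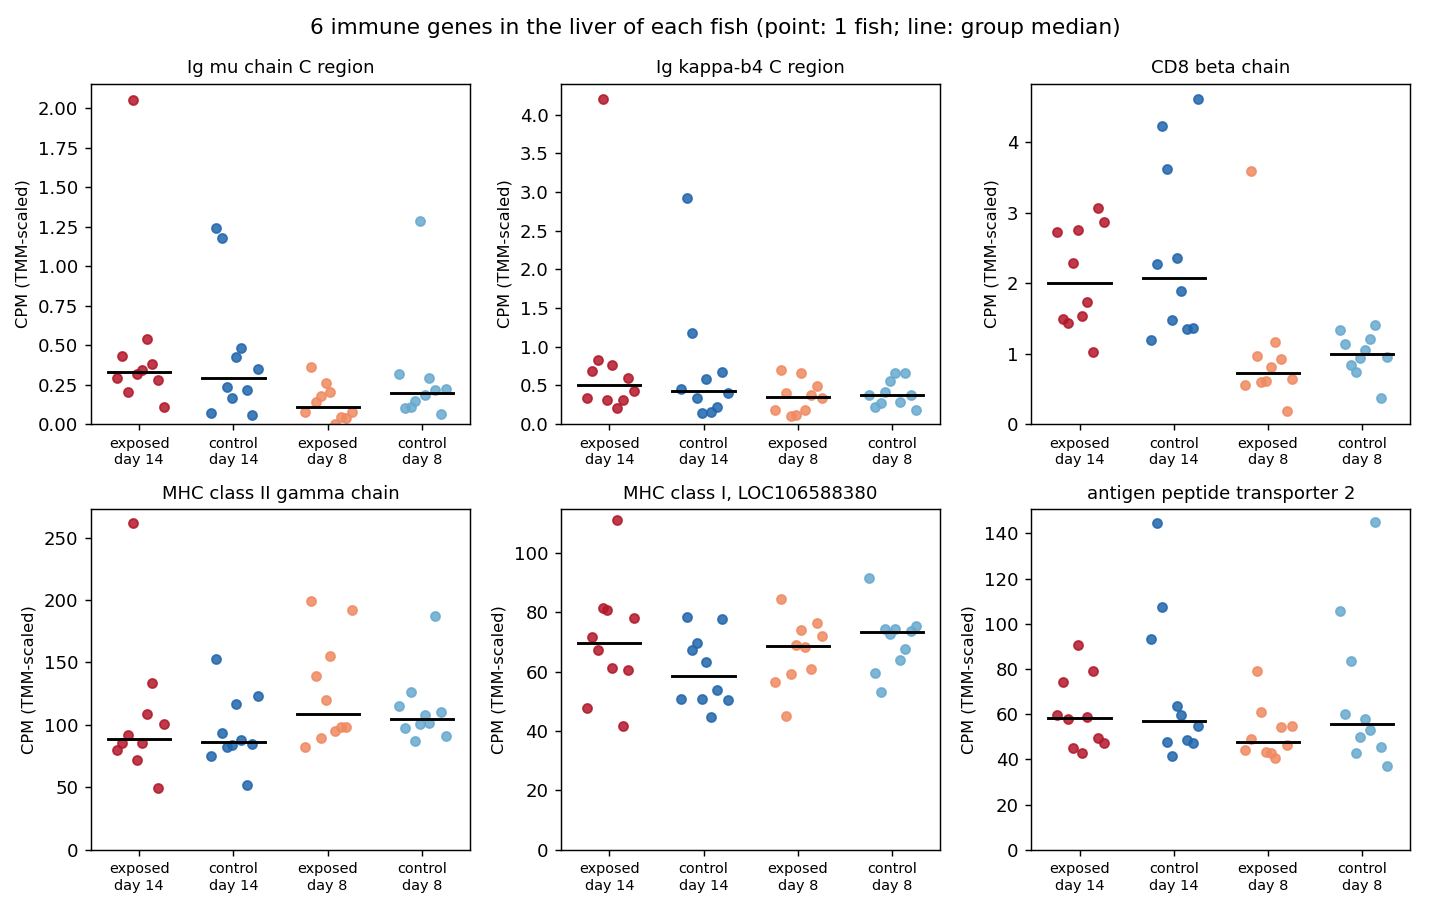
CPM of 6 members in each fish, with 1 point per fish and a line at the median of each group of 10. Exposed and control fish overlap within each day; CD8 beta sits higher at day 14 than at day 8 in both treatments, and exposed day 14 fish 9 stands above the others in Ig mu, Ig kappa and the class II gamma chain.

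Among the T cell genes, CD8 beta (LOC106604508), a chain of the CD8 co-receptor, had 1.03, 2.01 and 3.07 CPM in exposed fish at day 14, against 1.20, 2.08 and 4.61 CPM in control fish, and 0.190, 0.724 and 3.59 CPM in exposed fish at day 8, against 0.364, 1.00 and 1.41 CPM in control fish. Its lufenuron log2 fold change was -0.22 ± 0.32 (adjusted p = 0.906) at day 14 and 0.00 ± 0.33 (adjusted p = 0.998) at day 8. The CD3 zeta chain carries the signal of the T-cell receptor into the cell. Its gene LOC106581970 had 4.80, 5.89 and 7.17 CPM in exposed fish at day 14, against 4.32, 6.08 and 7.19 CPM in control fish, and 5.60, 6.41 and 7.59 CPM in exposed fish at day 8, against 5.34, 5.98 and 6.42 CPM in control fish. This gene was the steadiest of the 38 between fish. Its lufenuron log2 fold change was -0.04 ± 0.08 (adjusted p = 0.933) at day 14 and 0.11 ± 0.08 (adjusted p = 0.562) at day 8. The second CD3 zeta gene, LOC106575734, stayed between 0.154 and 1.24 CPM, and CD5 (LOC106602649), a surface protein of T cells that tempers receptor signalling, between 0.0181 and 0.526 CPM. Neither passed a lufenuron test.

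The class I genes are the heavy chains that hold the peptide. LOC106588380 had 41.7, 69.4 and 111 CPM in exposed fish at day 14, against 44.7, 58.4 and 78.4 CPM in control fish, and 45.1, 68.5 and 84.6 CPM in exposed fish at day 8, against 53.2, 73.2 and 91.4 CPM in control fish. At day 14, 8 of 10 exposed fish lay above the control median, with a log2 fold change of 0.21 ± 0.13 (adjusted p = 0.719). LOC106588401 had 30.7, 36.3 and 59.9 CPM in exposed fish at day 14, against 27.0, 48.9 and 86.3 CPM in control fish, which gave -0.33 ± 0.24 (adjusted p = 0.759) with 2 of 10 exposed fish above the control median. LOC106569936 stayed between 4.58 and 14.3 CPM over all fish, and neither it nor LOC106569938 passed a lufenuron test. For LOC106569938 the log2 fold change was 0.03 ± 0.09 (adjusted p = 0.959) at day 14 and 0.01 ± 0.09 (adjusted p = 0.962) at day 8. LOC106569960, which RefSeq lists as a transcribed pseudogene, had the smallest p of the 38 for a difference of the lufenuron effect between days, at -0.44 ± 0.27 (adjusted p = 0.579).

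Beta-2-microglobulin, the small invariant partner of class I, is represented by 12 entries. The entry b2m had 11.7, 15.6 and 35.1 CPM in exposed fish at day 14, against 13.1, 19.9 and 25.1 CPM in control fish, and 7.47, 13.7 and 42.4 CPM in exposed fish at day 8, against 7.90, 16.6 and 22.0 CPM in control fish. Its lufenuron log2 fold change was -0.11 ± 0.23 (adjusted p = 0.935) at day 14 and 0.03 ± 0.23 (adjusted p = 0.964) at day 8. Neither b2m nor any other of the 9 tested copies passed. LOC106576676 had medians of 17.8 CPM in exposed fish and 21.2 CPM in control fish at day 14. The entry b2m_1 varied more, between 3.12 and 24.3 CPM in exposed fish and 4.80 and 22.4 CPM in control fish at day 14. Of the copies at 1 to 10 CPM, LOC106592946 had the largest estimate at day 8, 0.84 ± 0.56 (adjusted p = 0.491), with 0.336, 2.96 and 14.6 CPM in exposed fish against 0.928, 2.08 and 6.87 CPM in control fish. The tested copies under 1 CPM, LOC106598335 and LOC106599112, did not pass either: LOC106598335 gave -0.53 ± 0.56 at day 14 and -0.29 ± 0.57 at day 8, and LOC106599112 gave -0.01 ± 0.56 at day 14 and -0.22 ± 0.57 at day 8.

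The transporter LOC106579291 (tap2t in RefSeq), which moves peptides to class I, had 43.0, 58.4 and 90.8 CPM in exposed fish at day 14, against 41.5, 57.1 and 145 CPM in control fish. At day 8 it had 40.6, 47.7 and 79.1 CPM in exposed fish, against 37.0, 55.5 and 145 CPM in control fish, with a log2 fold change of -0.40 ± 0.22 (adjusted p = 0.378) and 2 of 10 exposed fish above the control median.

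In class II, the gamma chain LOC106604844 (cd74a in RefSeq), which guards the peptide groove until the endosome, had 49.2, 88.7 and 262 CPM in exposed fish at day 14, against 51.7, 86.1 and 153 CPM in control fish. At day 8 it had 82.1, 109 and 199 CPM in exposed fish, against 86.9, 105 and 187 CPM in control fish. Within each day exposed and control fish covered nearly the same range, apart from exposed day 14 fish 9. The lowest values were lower at day 14 than at day 8. The lufenuron log2 fold change was 0.17 ± 0.21 at both days (adjusted p = 0.888 at day 14 and 0.753 at day 8). Without exposed day 14 fish 9 the day 14 value was -0.099 (adjusted p = 0.969). The class II chains present the peptide, and none passed a lufenuron test. LOC106565699 had 15.2, 20.6 and 60.8 CPM in exposed fish at day 14, against 13.3, 24.4 and 41.5 CPM in control fish, with a log2 fold change of -0.00 ± 0.21 (adjusted p = 1). LOC100136577 had 7.78, 18.1 and 60.5 CPM in exposed fish at day 14, against 5.49, 15.7 and 25.5 CPM in control fish, with 0.29 ± 0.33 (adjusted p = 0.873). At day 8 LOC106565699 gave 0.02 ± 0.21 (adjusted p = 0.970) and LOC100136577 gave 0.29 ± 0.33 (adjusted p = 0.722). LOC106600246 had 1.53, 2.04 and 7.70 CPM in exposed fish at day 14, against 1.14, 2.33 and 3.79 CPM in control fish, and 1.13, 3.16 and 5.95 CPM in exposed fish at day 8, against 1.96, 2.73 and 4.82 CPM in control fish. Its groups overlapped throughout, with 0.21 ± 0.26 (adjusted p = 0.883) at day 14 and 0.29 ± 0.26 (adjusted p = 0.631) at day 8. Without exposed day 14 fish 9, the day 14 values were -0.27 for LOC106565699, -0.10 for LOC100136577 and -0.13 for LOC106600246. The second gamma chain gene, LOC106611871, had a median of 33.1 CPM in both exposed and control fish at day 14, and of 38.3 CPM in exposed fish and 36.2 CPM in control fish at day 8.

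The only members with an unadjusted p under 0.05 for lufenuron came from the 6 other genes. At day 14 this was the H13 gene LOC106572089, with 61.6, 85.4 and 151 CPM in exposed fish against 70.2, 114 and 276 CPM in control fish; 8 of 10 exposed fish lay below the control median, and the log2 fold change was -0.59 ± 0.22 (unadjusted p = 0.011, adjusted p = 0.496). At day 8 it was the RFX1-like gene LOC106564291, with 0.541, 0.653 and 0.743 CPM in exposed fish against 0.143, 0.437 and 0.721 CPM in control fish. All 10 exposed fish lay above the control median, though the ranges overlapped, and the log2 fold change was 0.48 ± 0.24 (unadjusted p = 0.0493, adjusted p = 0.309). Neither passed the adjusted test, and at both days the share of members with an unadjusted p under 0.05 was below that over all genes. The other H13 gene, LOC106566469, ranged widely, with 46.3, 115 and 310 CPM in exposed fish at day 14 against 44.5, 180 and 348 CPM in control fish, and gave -0.43 ± 0.31 (adjusted p = 0.767).

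Genes of the same pathways outside the 58 were taken from lists chosen with earlier results of these data known. None of 55 tested genes of antigen processing passed at either day, with median log2 fold changes of -0.01 at day 14 and -0.07 at day 8. Calreticulin-like LOC106599148, a chaperone of newly made glycoproteins, came nearest at day 8, at -0.77 ± 0.22 (adjusted p = 0.063), and passed in 7 of 48 other settings, DESeq2 among them, with an adjusted p of 0.0201 to 0.125 over the 48. Of 37 tested B and plasma cell genes, none passed at day 14 and 1 was lower at day 8 (2.70% called, beside 1.63% over all genes). That gene was cd37, a tetraspanin of B cells, with 0.0660, 0.228 and 0.561 CPM in exposed fish against 0.143, 0.626 and 0.853 CPM in control fish, all 10 exposed fish below the control median, and a log2 fold change of -1.25 ± 0.34 (adjusted p = 0.0494). The call held in 23 of 48 other settings, with an adjusted p of 0.0158 to 0.101, and the difference of its lufenuron effect between the days was not called (1.49 ± 0.47, adjusted p = 0.228). None of 61 tested T and NK cell genes passed at either day. Their median log2 fold change was 0.20 at day 14, with 43 of 61 above 0, beside 0.004 over all genes. At day 8 it was -0.08, with 26 of 61 above 0, beside 0.005 over all genes. For the difference between days their median was 0.31, with 40 of 61 above 0, beside -0.002 over all genes. For that difference 1 gene was called (1.64%, beside 0.0493% over all genes). This was ccr9, a chemokine receptor that guides lymphocytes to the gut in mammals, at 5.53 ± 1.15 (adjusted p = 0.0478). That value rested on few fish: 2 exposed fish at day 14 had 13.9 and 12.7 CPM beside a group median of 0.415 CPM, and 2 control fish at day 8 had 13.7 and 13.1 CPM beside a group median of 0.870 CPM. No fish of the other groups passed 1.01 CPM. The ccr9 call held in 7 of 47 other settings.

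Between the sampling days a few members changed. In exposed fish, 3 members were higher and 1 was lower at day 14 than at day 8, and in control fish 1 was higher and 1 lower. Over all genes tested, 34.9% passed in exposed fish, made of 17.7% higher and 17.2% lower at day 14, and 19.3% passed in control fish, made of 10.4% higher and 8.97% lower. The genes higher at day 14 were 5374 of 10609 in exposed fish and 3150 of 5877 in control fish; with total counts as the only scaling they were 7917 of 10465 in exposed fish and 1957 of 5008 in control fish. That scaling moved the median log2 fold change of all genes by 0.19 in exposed fish and -0.06 in control fish, and by 0.18 in the day 14 lufenuron comparison. The members' shares, 10.5% in exposed fish and 5.26% in control fish, were below those backgrounds. The median log2 fold change of the 38 genes was -0.14 in exposed fish, beside -0.03 over all genes, and -0.11 in control fish, beside -0.005 over all genes. Sampling day came with other differences: 17 of 28 tested red cell genes were higher at day 14 in exposed fish and 14 in control fish, none lower. The summed level of the 41 red cell genes, of which 4 were at 0 in all fish, was 1350 to 4270 CPM in exposed fish at day 14, against 1220 to 2164 CPM at day 8, and 1524 to 3645 CPM in control fish at day 14, against 1262 to 2472 CPM at day 8. Of 20 tested endothelium and stroma genes, 5 were lower in exposed fish and 6 in control fish. All 4 tested gut epithelium genes were lower in exposed fish, with a median log2 fold change of -3.47, and none passed in control fish, with a median of -1.46. The size of the exposed change leaned on 1 fish. The summed gut epithelium level in exposed fish at day 8 had a mean of 12.4 CPM but a median of 2.12 CPM, with 78.4 CPM in fish 3. At day 14 the mean was 1.39 CPM and the median 0.934 CPM. Of 14 tested hepatocyte genes, 3 were lower in exposed fish and none passed in control fish. No tested pancreas or thrombocyte gene passed. The part of these cells in the day results was not tested.

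**Figure D3:**
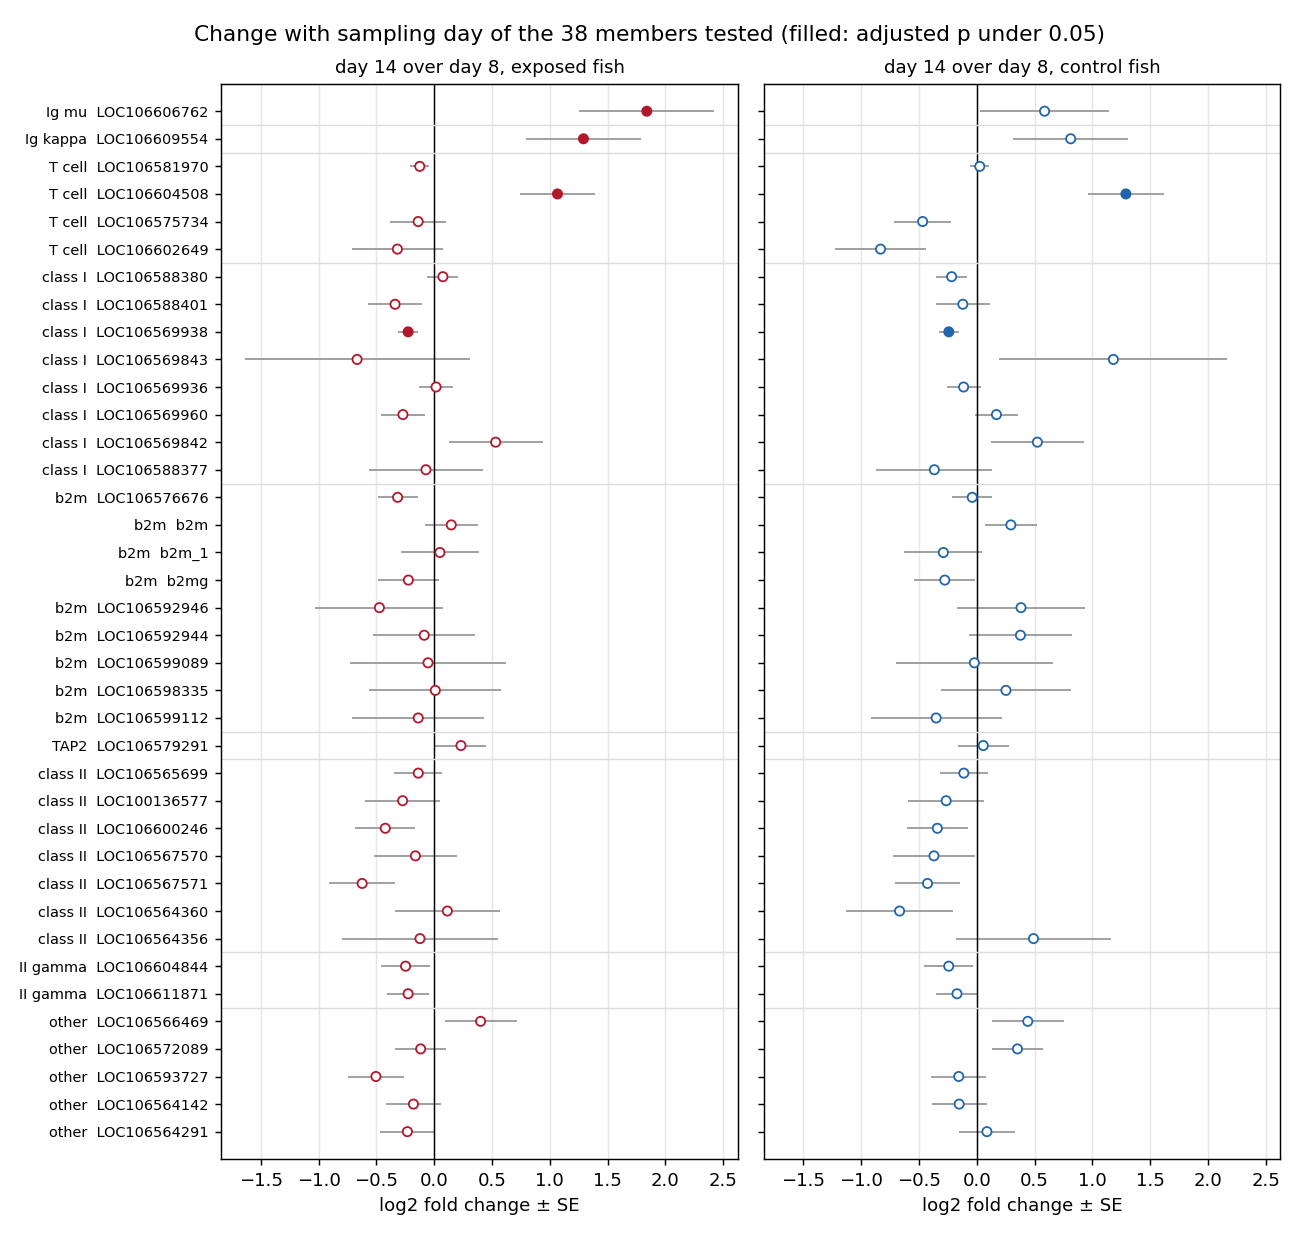
Log2 fold change of day 14 over day 8, with its SE, for the 38 members tested, grouped by role; exposed fish on the left and control fish on the right. Filled circles have an adjusted p under 0.05: Ig mu, Ig kappa, CD8 beta and the class I gene LOC106569938 in exposed fish, and CD8 beta and LOC106569938 in control fish.

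CD8 beta had the smallest adjusted p of the 38 genes in both treatments. It had 1.03, 2.01 and 3.07 CPM in exposed fish at day 14, against 0.190, 0.724 and 3.59 CPM at day 8, and 1.20, 2.08 and 4.61 CPM in control fish at day 14, against 0.364, 1.00 and 1.41 CPM at day 8. All 10 day 14 fish lay above the day 8 median in each treatment, and the ranges overlapped. Exposed day 8 fish 7 had 3.59 CPM while the next fish of its group had 1.16 CPM. The log2 fold change was 1.07 ± 0.33 (adjusted p = 0.00959) in exposed fish and 1.29 ± 0.33 (adjusted p = 0.00452) in control fish, and the difference of the 2 changes did not pass (-0.22 ± 0.46, adjusted p = 0.914). Both calls held in all 48 other settings, with values of 0.94 to 1.54 in exposed fish and 1.12 to 1.37 in control fish. The CD3 zeta gene LOC106581970 did not pass, at -0.13 ± 0.08 (adjusted p = 0.248) in exposed fish and 0.03 ± 0.08 (adjusted p = 0.864) in control fish. CD5 stood at -0.32 ± 0.39 in exposed fish and -0.83 ± 0.40 (adjusted p = 0.137) in control fish.

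Both Ig genes were called higher at day 14 in exposed fish. Ig mu had 0.110, 0.327 and 2.05 CPM at day 14, against 0, 0.111 and 0.359 CPM at day 8, with 9 of 10 day 14 fish above the day 8 median and a log2 fold change of 1.84 ± 0.59 (adjusted p = 0.0126). In control fish the change was 0.59 ± 0.56 (adjusted p = 0.497), and the difference of the 2 changes did not pass (1.25 ± 0.80, adjusted p = 0.602). Ig kappa had 0.212, 0.509 and 4.20 CPM at day 14, against 0.110, 0.353 and 0.693 CPM at day 8, with 6 of 10 day 14 fish above the day 8 median and 1.29 ± 0.50 (adjusted p = 0.0415) in exposed fish; in control fish it gave 0.81 ± 0.50 (adjusted p = 0.264). Exposed day 14 fish 9, which at 66 g was the heaviest of its group, had the highest value of both genes. Without that fish Ig mu had 1.22 (adjusted p = 0.0827) and Ig kappa 0.50 (adjusted p = 0.400). The Ig mu call held in the 47 other alternatives and the Ig kappa call in 37 of 48.

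The class I gene LOC106569938 was lower at day 14 by a small but even amount. It had 18.3, 20.8 and 24.7 CPM at day 14, against 18.1, 25.4 and 31.5 CPM at day 8 in exposed fish, and 17.6, 21.2 and 23.4 CPM at day 14, against 18.4, 24.2 and 30.1 CPM at day 8 in control fish. All 10 day 14 fish lay below the day 8 median in each treatment. The log2 fold change was -0.23 ± 0.09 (adjusted p = 0.0438) in exposed fish and -0.24 ± 0.09 (adjusted p = 0.0489) in control fish, and the calls held in 14 of 48 other settings in exposed fish and 13 of 48 in control fish. With total counts as the only scaling the exposed value was -0.04 (adjusted p = 0.821). No other class I gene, no beta-2-microglobulin gene and not the transporter passed with day.

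Class II genes mostly had estimates below 0 at day 14, and none passed the test. Of the 7 tested class II chains, 6 had a log2 fold change under 0 in exposed fish and 6 in control fish, and the gamma chain LOC106604844 gave -0.25 ± 0.21 (adjusted p = 0.390) in exposed fish and -0.24 ± 0.21 (adjusted p = 0.455) in control fish. LOC106567571 came closest in exposed fish, with 0.131, 0.541 and 1.23 CPM at day 14, against 0.382, 0.944 and 1.40 CPM at day 8, at -0.62 ± 0.28 (adjusted p = 0.0850). Without exposed day 14 fish 9, 4 of these genes passed in exposed fish, namely LOC106604844 at -0.50 (adjusted p = 0.0313), LOC106611871 at -0.42 (adjusted p = 0.0367), LOC106600246 at -0.75 (adjusted p = 0.00807) and LOC106567571 at -0.81 (adjusted p = 0.0221). Fish 9 had the highest exposed day 14 value of each of them, so its removal lowers their day 14 means by construction. Of the 48 other settings, this removal included, LOC106567571 was called in 2 and each of the other named genes in 1. Since the same removal ended the calls of both Ig genes, the number of members called became 6 of 38, with 1 higher. Over all genes, fits with 1 fish left out called 9644 to 11345 in exposed fish, beside 10609 (34.9%) with all fish. Fish 9 also had the highest sum of 41 macrophage, dendritic cell and neutrophil markers, 242 CPM; the sum ran between 113 and 242 CPM in exposed fish at day 14, 109 and 174 CPM in control fish at day 14, 123 and 219 CPM in exposed fish at day 8, and 106 and 187 CPM in control fish at day 8. Of the 27 tested genes of this list, 5 were higher and 2 lower at day 14 in exposed fish (25.9% called, beside 34.9% over all genes). None passed in control fish, beside 19.3% over all genes. Their median log2 fold change was 0.17 in exposed fish and 0.04 in control fish, while the class II estimates were mostly below 0. The part of these cells in the class II values was not tested.

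Other genes of these pathways passed with day in shares on both sides of the background over all genes. Of the 55 tested antigen processing genes, 15 were higher and 9 lower at day 14 in exposed fish (43.6% called, beside 34.9% over all genes), and 6 higher and 2 lower in control fish (14.5%, beside 19.3%). Calreticulin-like LOC106599148 and calnexin-like LOC106591956, both chaperones of secreted and membrane proteins, were higher. LOC106599148 had 23.1, 42.1 and 90.1 CPM at day 14, against 10.1, 14.3 and 26.4 CPM at day 8 in exposed fish, at 1.61 ± 0.23 (adjusted p = 8.4e-07), and 1.19 ± 0.23 (adjusted p = 0.000276) in control fish. LOC106591956 rose by 1.34 ± 0.20 (adjusted p = 1.45e-06) in exposed fish and 0.97 ± 0.19 (adjusted p = 0.000529) in control fish. Another calnexin-like gene, LOC106612323, chosen after its values were seen, was lower in exposed fish at -1.46 ± 0.56 (adjusted p = 0.0409) and gave -1.11 ± 0.61 (adjusted p = 0.202) in control fish. Its highest value, 3.93 CPM, was in exposed day 8 fish 3, the fish with the highest gut epithelium sum, and the next exposed fish at day 8 had 1.25 CPM.

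Of the 37 tested B and plasma cell genes, 4 were higher and 3 lower in exposed fish (18.9%, beside 34.9% over all genes). In control fish 5 were higher and 3 lower (21.6%, beside 19.3%). In exposed fish the CD22-like gene LOC106582456, a brake on the B-cell receptor, was higher at 1.80 ± 0.55 (adjusted p = 0.0097) and cd37 at 1.45 ± 0.34 (adjusted p = 0.000949), while the CD81-like gene LOC106587471, a tetraspanin of the B-cell co-receptor and of many other cells, was lower at -0.43 ± 0.11 (adjusted p = 0.00279). The interferon regulatory factor 4-like gene LOC106566745 was also higher in exposed fish, at 1.38 ± 0.40 (adjusted p = 0.00593). In control fish CD22-like gave 0.84 ± 0.53 (adjusted p = 0.280), cd37 -0.04 ± 0.33 (adjusted p = 0.947) and LOC106566745 0.42 ± 0.38 (adjusted p = 0.474). There the BACH2-like gene LOC106610754, a transcription factor that holds back plasma cell formation in mammals, was lower at -1.41 ± 0.30 (adjusted p = 0.00112). The BCL6-like gene LOC106568762, a transcriptional repressor active in germinal centre B cells in mammals, was higher in control fish at 1.76 ± 0.45 (adjusted p = 0.005). The CD81-like call ended with total counts as the only scaling (-0.23, adjusted p = 0.102), and the BCL6-like call ended without the 3 light day 14 control fish (0.95, adjusted p = 0.116).

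Of the 61 tested T and NK cell genes, 4 were higher and 3 lower in exposed fish (11.5%, beside 34.9% over all genes). In control fish 4 were higher and 7 lower (18.0%, beside 19.3%). CD8 beta did not stand for the direction of the list. In control fish 44 of the 61 had a log2 fold change under 0, with a median of -0.33, beside -0.005 over all genes. In exposed fish 31 of the 61 did, with a median of -0.02, beside -0.03 over all genes. The CD2-like adhesion receptor LOC106582048 was lower in both treatments, at -1.21 ± 0.26 (adjusted p = 0.000379) in exposed fish and -1.09 ± 0.26 (adjusted p = 0.00309) in control fish. So was the TOX-like gene LOC106599578, a transcription factor of developing T cells, at -0.84 ± 0.29 (adjusted p = 0.0236) in exposed fish and -1.16 ± 0.30 (adjusted p = 0.00572) in control fish, though the exposed call held in 44 of 48 other settings. The perforin-like gene LOC106594578, named for the pore protein of killer cells, was higher in control fish at 2.06 ± 0.52 (adjusted p = 0.00482) and gave -0.40 ± 0.50 (adjusted p = 0.576) in exposed fish. The summed level of the 100 T and NK cell genes, 2 of them at 0 in all fish, was 114 to 203 CPM in exposed fish at day 14, against 131 to 184 CPM at day 8, and 89.1 to 244.9 CPM in control fish at day 14, against 124 to 208 CPM at day 8. That of the 87 B and plasma cell genes, 2 at 0 in all fish, was 381 to 543 CPM in exposed fish at day 14, against 363 to 890 CPM at day 8, and 341 to 686 CPM in control fish at day 14, against 336 to 460 CPM at day 8. Both sums overlapped between the days.

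The members differed more between fish than most genes of their level. The biological coefficient of variation (BCV), the between-fish spread that edgeR estimates beyond counting error, ran from 0.133 to 1.44 over the 38 genes with a median of 0.412, beside a common value of 0.371 over all genes. For 24 of the 38 it was above that of 80% of the 1000 genes nearest in mean level, and for 11 above that of 90%; the median percentile was 85.6. Without exposed day 14 fish 9, an alternative chosen after the data were seen, the counts were 21 and 11. CD3 zeta LOC106581970 was at the other end, with a BCV of 0.133 and percentile 2.8, as was the class I gene LOC106569938, with 0.148 and 16.1. These percentiles are a description, with no test.

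A class I gene and a beta-2-microglobulin copy split the fish into separate low and high sets. LOC106569843, a class I gene, had 1.07 CPM or less in 15 fish, with a median of 0.496 CPM, and 4.88 to 48.3 CPM in the other 25, with a median of 23.4 CPM. The low fish were 4 of 10 exposed fish at day 14, 4 of 10 control fish at day 14, 1 of 10 exposed fish at day 8 and 6 of 10 control fish at day 8. Its lufenuron log2 fold change was -0.33 ± 0.97 (adjusted p = 0.959) at day 14 and 1.52 ± 0.99 (adjusted p = 0.479) at day 8, with 9 of 10 exposed fish above the control median at day 8. It was the most variable member, with a BCV of 1.44. LOC106599089, a beta-2-microglobulin-like gene, had 0.110 CPM or less in 7 fish and 0.580 to 4.51 CPM in the other 33, and its low fish were 2 exposed fish at day 14, 2 control fish at day 14, 2 exposed fish at day 8 and 1 control fish at day 8. The sets were made from the values and are not groups of the study.

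**Figure D4:**
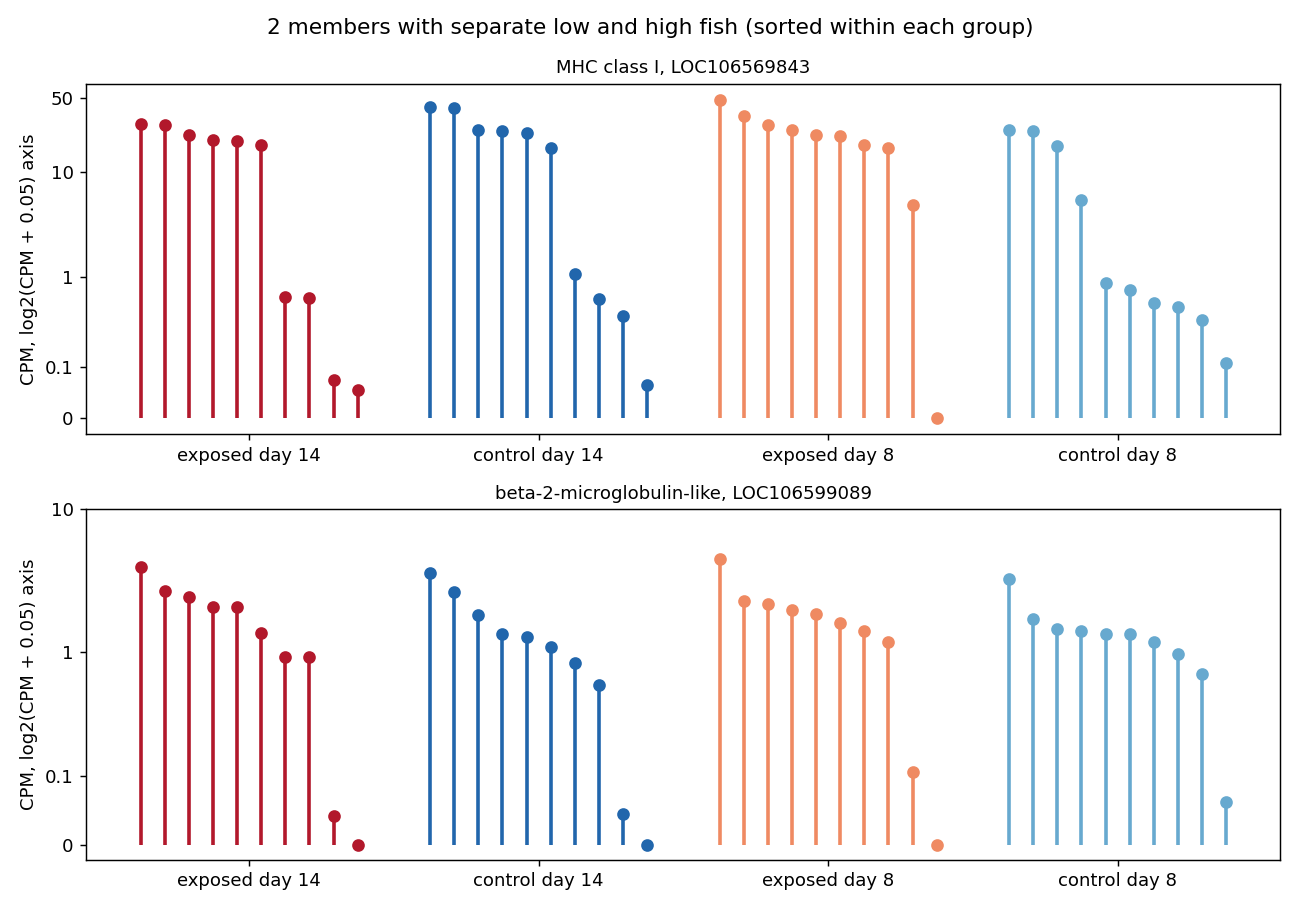
CPM of LOC106569843 (upper panel) and LOC106599089 (lower panel) in each fish, sorted from high to low within each group, on an axis of log2(CPM + 0.05). Fish fall into a high and a low set in every group, with 15 low fish for LOC106569843 and 7 for LOC106599089.

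Several class II genes varied together from fish to fish. Values were taken as log2(CPM + 0.05) after subtracting each group's mean, over 40 fish, and set against the gamma chain LOC106604844; 8 relations were computed, with two-sided permutation tests of 100000 shuffles within groups and Benjamini-Hochberg adjustment. The second gamma chain gene LOC106611871 followed it closely, with Pearson r = 0.979 and Spearman rho = 0.950 (adjusted permutation p = 2e-05 each). LOC106565699 had r = 0.871 and rho = 0.694, LOC106600246 had r = 0.863 and rho = 0.763, and LOC100136577 had r = 0.750 and rho = 0.698. These 3 class II chains had the same adjusted permutation p, for which the raw p of 1e-05 was the smallest that the shuffles can give. Without the 2 fish farthest from the median, exposed day 14 fish 9 and 4, r was 0.968 for LOC106611871, 0.820 for LOC106565699, 0.822 for LOC106600246 and 0.672 for LOC100136577. Within single groups r was 0.950 to 0.996 for LOC106611871, 0.784 to 0.917 for LOC106565699, 0.800 to 0.900 for LOC106600246 and 0.492 to 0.854 for LOC100136577. The points of a fish share 1 library and its depth. LOC106604844 and LOC106611871 are both gamma chain genes, and how reads shared between copies were assigned is not given. The part of such reads in these correlations was not tested. How many of all genes correlate as closely with LOC106604844 was not counted, so these values say nothing particular to class II genes.

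**Figure D5:**
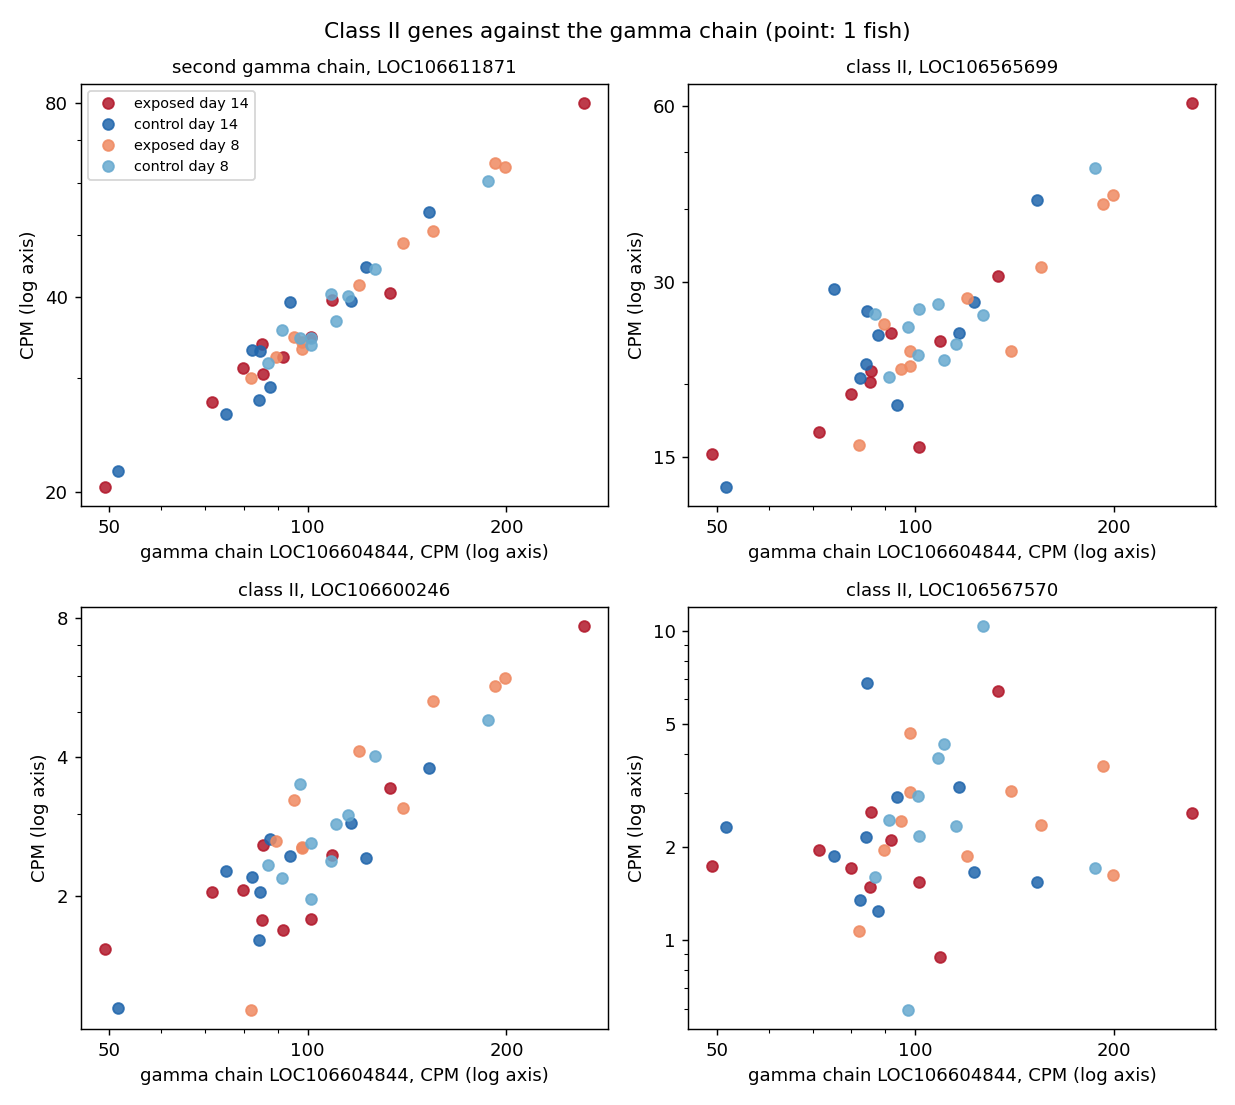
CPM of the second gamma chain gene and 3 class II genes (vertical, log axis) against the gamma chain LOC106604844 (horizontal, log axis), with 1 point per fish. The first 3 follow the gamma chain in all 4 groups, with r = 0.979, 0.871 and 0.863, whereas LOC106567570 scatters without a clear slope, with r = 0.145.

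The other 4 class II chains followed the gamma chain less or not detectably. LOC106564356, LOC106564360 and LOC106567571 had means of 0.116, 0.384 and 0.702 CPM, where counting error limits precision, and LOC106567570 had 2.65 CPM. The chains that followed it more closely had means of 2.91 to 25.9 CPM. The part of counting error in the lower r was not tested. LOC106564360 had r = 0.490 (adjusted permutation p = 0.0091) and rho = 0.35 (adjusted permutation p = 0.066), without the same 2 fish r was 0.401, and within single groups r ran from -0.03 in control fish at day 14 to 0.759 in exposed fish at day 8. LOC106564356 had r = 0.336 (adjusted permutation p = 0.05), which became 0.179 without those fish, and LOC106567571 had r = 0.296 (adjusted permutation p = 0.11), which became 0.156. The values of both rested in part on those 2 fish. LOC106567570, with 0.595 to 10.3 CPM in control fish at day 8, had r = 0.145 (adjusted permutation p = 0.36) and rho = 0.133 (adjusted permutation p = 0.42).

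Some members with too few reads for a test stood out in single fish. The class II genes LOC106574265 and LOC106586334 stood highest in exposed day 8 fish 3: LOC106574265 had 3.13 CPM there and at most 0.545 CPM in every other fish, and LOC106586334 had 0.853 CPM there and at most 0.256 CPM elsewhere. That fish also had the highest gut epithelium sum, 78.4 CPM, and the part of that tissue in these values was not tested. Exposed day 8 fish 7 had the highest b2m, 42.4 CPM, the highest CD8 beta of its group, and the highest sum of the 87 B and plasma cell genes, 890 CPM. That sum includes 50.2 CPM of the CD81-like gene LOC106587471, which is also a gene of many other cells. It also includes 45.7 CPM of the PR domain zinc finger protein 1-like gene LOC106588492, where the next fish of the group had 4.75 CPM. The group median was 437 CPM for the sum and 41.8 CPM for the CD81-like gene. The genes named here thus cover only a small part of the gap. The part of B cells in the sum was not tested.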

How the data were processed

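Per the labels' protocols, liver RNA (RNA integrity number 9.5 ± 0.2) was purified on poly-T beads and made into NEBNext libraries. The authors deposited raw counts per gene, as whole numbers with no normalization, for 79140 entries and 40 fish. HISAT2, Cufflinks, HTSeq and DESeq2 are named, with no version, by the submitters' processing notes. No coordinates are printed, because the genome build is not given in the sources used here. RefSeq names (assembly Ssal_v3.1) matched 36 of the 58 members.

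Members were found by their gene description. The members and gene lists were chosen with earlier results of these data known. The tests used R 4.3.3 with edgeR 4.0.16, limma 3.58.1 and the package data.table, version 1.17.8: filterByExpr (minimum count 10, minimum total 15) kept 30397 entries with 99.9% of the counts, libraries were scaled with TMM, and all 40 fish entered a robust quasi-likelihood fit with a mean for each of the 4 groups. Contrasts were exposed against control fish at each day, how far these contrasts differed, and day 14 against day 8 in each treatment, with Benjamini-Hochberg adjustment over all entries tested and a threshold of 0.05. CPM values use the TMM-scaled totals of the deposited counts. At this depth counting error adds little above about 1 CPM and limits the precision of genes below it. The fit was also run on simulated counts, drawn with the same spread for every gene and changed only in genes above a minimum mean count. That run therefore does not cover members with fewer reads or a wider spread. Correlations and figures used Python 3.11.15, numpy 2.4.6, pandas 2.3.3 and matplotlib 3.10.9. No pair of libraries of a group agreed within sampling noise, the smallest chi-square per gene being 50.4 over 180 pairs.

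Members are named if called with lufenuron or among the 5 called with the smallest p in each direction of a day contrast, if among the 4 highest in mean CPM of a role, or if among the 5 smallest p in each direction of a lufenuron contrast with a mean of at least 1 CPM. Up to 4 genes past the threshold are named from a list, and other genes singled out in the text were chosen after their values were seen. The alternatives tried were DESeq2 1.42.0, scaling by RLE or by total counts alone, no filter, only the fish of the groups compared, the replicate number as a block, body weight as a covariate, 3 light day 14 control fish left out, and each fish left out in turn. The labels give no batch, and the replicate numbers name different fish.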

Additional observations from a re-analysis of the deposited data

Results flagged for a closer look

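In a group of 10 fish a single highest or lowest value was set apart from the rest when its gap to the nearest other value, divided by the range of the group, exceeded Dixon's 95% critical value. This was so in 27 of 112 sets of 10 values, each time for the highest value. The rate of 1 in 20 by chance holds only for normally distributed values, which CPM need not be. The sets are also not independent because many share a fish. No such rate was computed over all genes, so the count is a description of these members only.

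Exposed day 14 fish 9 stood apart in 7 genes. It had 262 CPM of the class II gamma chain LOC106604844 where the next fish had 133, 80 CPM of the second gamma chain LOC106611871 (next 40.6), 60.8 CPM of LOC106565699 (next 30.6), 60.5 CPM of LOC100136577 (next 21.5), 7.70 CPM of LOC106600246 (next 3.43), 2.05 CPM of Ig mu LOC106606762 (next 0.539) and 4.20 CPM of Ig kappa LOC106609554 (next 0.825). Control day 8 fish 8 stood apart in 4 genes, with 187 CPM of LOC106604844 (next 127), 60.5 CPM of LOC106611871 (next 44.2), 47.1 CPM of LOC106565699 (next 27.5) and 114 CPM of the class I gene LOC106588401 (next 75.1).

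Exposed day 8 fish 3 had 115 CPM of LOC106588401 (next 68.3), 79.1 CPM of the transporter LOC106579291 (next 61.1) and 163 CPM of the H13 gene LOC106572089 (next 121). Control day 8 fish 3 had 258 CPM of LOC106572089 (next 118), 312 CPM of the H13 gene LOC106566469 (next 181) and 10.3 CPM of the class II gene LOC106567570 (next 4.32). LOC106567570 also stood apart in exposed day 14 fish 8, at 6.37 CPM (next 2.60), and in control day 14 fish 4, at 6.78 CPM (next 3.13).

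Exposed day 8 fish 7 had 3.59 CPM of CD8 beta LOC106604508 (next 1.16) and 42.4 CPM of b2m (next 23.7). Control day 14 fish 1 had 10.4 CPM of the beta-2-microglobulin copy LOC106592944 (next 2.47) and 22.4 CPM of b2m_1 (next 13.3), and control day 8 fish 7 had 5.24 CPM of LOC106592944 (next 1.97) and 6.87 CPM of LOC106592946 (next 3.98). Control day 14 fish 7 had 2.93 CPM of Ig kappa LOC106609554 (next 1.18), and control day 8 fish 5 had 1.29 CPM of Ig mu LOC106606762 (next 0.318).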

How the results depend on the processing

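No member was called with lufenuron under any alternative. Over all genes, 494 were called at day 8, 1048 with DESeq2, 231 with the replicate block and 128 to 1246 with 1 fish left out; at day 14 none was called, 20 with DESeq2 and 0 to 1 with 1 fish left out. For the difference between days, 15 were called, 133 with DESeq2, 422 with total counts, 3 with no filter, 8 with the replicate block, 4 with weight as a covariate, 5 without the 3 light control fish and 0 to 104 with 1 fish left out. The members called with day in exposed fish, 4, were 2 with the replicate block, 2 with weight and 2 to 6 with 1 fish left out, 2 without exposed day 8 fish 2, 5, 6 or 9. The 2 called in control fish were 1 with RLE, total counts, the replicate block, weight, without the light fish and with only the groups compared, and 1 to 3 with 1 fish left out. LOC106572089 was called in control fish without control day 8 fish 3 (0.58, adjusted p = 0.0321), and LOC106593727 in exposed fish without exposed day 14 fish 3 (-0.63, adjusted p = 0.0384). The ccr9 change with day in exposed fish was 2.49 and, with DESeq2, -0.27. The causes were not tested. Same-numbered fish did not deviate together (r -0.24 to 0.30, with 1 to 3 of 10 pairs over 0.1 in each pair of groups, and at most 3 of 10 fish closest to their own number), so the block pairs only a number. The filter on low counts left 20 members untested.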
